A study of Arabidopsis thaliana and Nicotiana tabacum with 16 samples.

Results

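Histones were followed here through 39 Arabidopsis genes, taken by locus identifier from the 27628 genes of the count tables. They comprise 25 replicative genes (5 for H3.1, 8 for H4, 4 for canonical H2A and 8 for H2B), 11 variant genes (3 for H3.3, 3 for H2A.W, 2 for H2A.X and 3 for H2A.Z) and 3 genes for the linker histone H1. All 39 were present in the tables and matched the reference annotation by identifier. Genes are given by their reference symbol, or by locus identifier and family where the reference has none.

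Nucleosomes hold DNA on a core of H2A, H2B, H3 and H4, and H1 binds the DNA between them. Replicative histones are made mainly in S phase and are loaded onto newly copied DNA, whereas variants such as H3.3 and H2A.Z are made and inserted outside replication as well. In plants H3.3 accumulates over transcribed genes, H2A.Z marks promoters and the bodies of responsive genes, H2A.W marks heterochromatin, and H2A.X becomes phosphorylated at DNA breaks.

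Ribosome profiling (Ribo-seq) sequences the ribosome-protected fragments (RPFs) that remain after a nuclease has digested unprotected mRNA, and 14 libraries from Col-0 seedlings were used, with no mutant or transgene named. The 14-day seedlings, grown in 12 h light and 12 h dark on medium for which no sucrose is stated, gave 2 rRNA-depleted libraries (oligo cocktail versions V1 and V2), 2 rRNA-depleted libraries that compared a ligation-based with a ligation-free kit, a repeat library of the 700 U digest, and 3 undepleted libraries digested with 400, 550 or 700 U of RNase I. The depleted and kit libraries had 600 U. The 8-day seedlings, grown in 16 h light and 8 h dark with 1% sucrose, gave 3 libraries from micrococcal nuclease (MNase) digests at 75, 150 and 300 U and 3 from RNase I digests at 62.5, 125 and 250 U. RPFs were cut to 20 to 35 nt in depleted libraries and 20 to 50 nt in the others. Apart from the 700 U repeat each condition was sequenced once, and no separate cultures are named. The nuclease doses therefore stood as the repeats of a group. In the depleted and kit groups the 2 cocktails and the 2 kits stood as repeats. The p-values measure the spread between these libraries, which in those groups includes the difference between cocktails or kits. Age cannot be told apart from photoperiod, medium and RNase I dose. RPFs were analysed without matched RNA-seq and from bulk tissue, so that mRNA amount and translation, or fewer cells of a type and less RNA per cell, cannot be told apart either.

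The sequences below show how the replicative and the variant form of H3 differ, and how alike the copies within a form are. The 5 H3.1 genes encode 1 protein of 136 residues and the 3 H3.3 genes another, and these proteins differ at positions 31, 41, 87 and 90, counted after the initiator methionine. The coding stretch for positions 27 to 45 lies in 1 coding exon on the minus strand of TAIR10 in each gene, at chr5:26120372-26120428 for AT5G65360, chr3:10129732-10129788 for AT3G27360, chr5:3270751-3270807 for AT5G10400, chr4:18556198-18556254 for AT4G40030, chr4:18558012-18558068 for AT4G40040 and chr5:3472954-3473010 for AT5G10980. Capitals mark the codons for positions 31 and 41.
AT5G65360, H3.1: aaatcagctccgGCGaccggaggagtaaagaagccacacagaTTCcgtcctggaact
AT3G27360, H3.1: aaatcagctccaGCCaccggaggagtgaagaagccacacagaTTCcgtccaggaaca
AT5G10400, H3.1: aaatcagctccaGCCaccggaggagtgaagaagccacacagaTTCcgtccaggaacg
AT4G40030, H3.3: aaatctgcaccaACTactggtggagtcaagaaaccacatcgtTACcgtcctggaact
AT4G40040, H3.3: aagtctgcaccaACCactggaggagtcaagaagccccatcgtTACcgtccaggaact
AT5G10980, H3.3: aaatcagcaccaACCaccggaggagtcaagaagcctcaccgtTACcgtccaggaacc
In this stretch AT3G27360 and AT5G10400 differed at 1 of 57 bases, whereas AT3G27360 differed from the H3.3 genes AT4G40030, AT4G40040 and AT5G10980 at 14, 12 and 8. AT5G65360 differed from both other H3.1 genes shown at 5 bases. Among the H3.3 genes, AT4G40040 differed from each of the others at 6, and AT4G40030 from AT5G10980 at 9. The last pair was thus less alike than AT3G27360 and AT5G10980, which belong to different forms. The codons for positions 87 and 90 stand in capitals in the stretch for positions 83 to 94, again on the minus strand, at chr5:26120225-26120260 for AT5G65360 and chr4:18557665-18557700 for AT4G40040.
AT5G65360, H3.1: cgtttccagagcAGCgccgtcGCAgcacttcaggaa
AT4G40040, H3.3: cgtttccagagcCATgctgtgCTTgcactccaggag

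How far copies share reads follows from their coding sequences, since the authors kept 1 alignment for a read that fits several places. Of all 28-nt windows in the H4 coding sequences, 46.0% also occurred without mismatch in another gene, with a range of 1.8% for AT3G53730 to 71.6% for AT3G46320 and AT3G45930. The share was 13.4% for canonical H2A, 10.9% for H2B, 7.1% for H3.1, 4.5% for H2A.X, 3.4% for H3.3, 0.4% for H2A.Z, 0.1% for H2A.W and 0.0% for H1. Values of single H4 genes are therefore uncertain, as the 8 H4 genes encode 1 protein and several were nearly identical in sequence, while their sum does not depend on which copy a read was given to. Windows shared with a gene outside the family numbered 0 for H4, H2A.Z and H1. They numbered 35 for canonical H2A, 24 for H2A.X, 22 for H3.1, 5 for H2B, 2 for H3.3 and 1 for H2A.W. Such a gene need not be among the histone genes followed here. For the H3.3 gene AT5G10980, for example, the top partner was AT1G13370, which is not among them. In those 6 families a few reads could have been counted in, or come from, a gene outside the family. The replicative genes also differed from the variants in structure. All 21 H3.1, H4 and H2B genes had an uninterrupted coding sequence, while each of the 11 variant genes and the 4 canonical H2A genes had at least 2 coding segments, and 23.5% of all nuclear genes had only 1. The median GC content at the last codon position was 50.5% in replicative genes, 41.2% in variant genes and 42.1% over all nuclear genes. The H2B gene AT2G28720 (34.4%) stood apart from the other 7 H2B genes (51.7% to 64.0%).

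Promoters, taken as 250 bases before to 50 bases after the annotated gene start, were searched on both strands for the histone octamer motif CGCGGATC (GATCCGCG on the other strand) and the E2F motif TTTCCCGC (GCGGGAAA). No histone promoter held the E2F motif, so overlap between the motifs did not arise. The octamer occurred in 10 of 39 histone promoters (25.6%), against 40 of all 27418 promoters (0.15%), and the holders were 7 of the 25 replicative genes, 2 of the 11 variant genes and 1 of the 3 linker genes. The sites of the H3.1 genes AT5G65360 (chr5:26120684-26120723, minus strand) and AT1G09200 (chr1:2972401-2972440, minus), the H4 gene AT5G59690 (chr5:24051387-24051426, plus), HTA10 for canonical H2A (chr1:18926721-18926760, plus) and HTA6 for H2A.W (chr5:24116313-24116352, minus) are shown in TAIR10 coordinates with the motif in capitals, as examples from each replicative family that held the motif and from a variant gene.
AT5G65360 promoter: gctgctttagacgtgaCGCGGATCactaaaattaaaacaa
AT1G09200 promoter: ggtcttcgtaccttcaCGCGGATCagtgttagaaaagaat
AT5G59690 promoter: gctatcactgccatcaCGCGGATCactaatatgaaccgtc
HTA10 promoter: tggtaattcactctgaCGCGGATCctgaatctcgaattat
HTA6 promoter: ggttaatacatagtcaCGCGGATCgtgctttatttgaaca
The E2F motif was found in 4 of 11 DNA replication genes and 218 of all promoters (0.8%). Of the 39 genes, 18 lay within 100 kb of another member and 8 within 10 kb. The closest pairs were of the same family, with the H3.1 genes AT5G10390 and AT5G10400 578 bp apart and the H3.3 genes AT4G40030 and AT4G40040 43 bp apart.

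Libraries held 2338819 to 11583740 counts over coding sequences (CDS), and the 39 genes together took 5409 to 27634 of them, or 0.176% (V2) to 0.285% (ligation-based). At least 10 counts were reached by 36 to 39 of the 39 genes in every library, and 14.0% to 24.4% of the counts came from organelle genes. Levels are given in counts scaled to a common library total (CPM, scaled to all CDS counts of the library). Within a library, levels per kb of coding sequence set genes in order. For AT4G40030 (H3.3) the counted length merges its transcripts to 492 bases, against 408 for the other H3.3 genes, which encode the same protein. Its place in the order depends on this length. In the 14-day RNase I libraries AT4G40040 (H3.3) led with a mean of 869.7 CPM per kb, ahead of HTA9 (H2A.Z, 485.1), AT4G40030 (H3.3, 473.2) and AT5G10980 (H3.3, 342.2), where the ranges of HTA9 and AT4G40030 overlapped. In the 8-day RNase I libraries AT4G40040 (432.9 CPM per kb) was followed by the replicative genes HTB4 (H2B, 309.1) and HTA10 (H2A, 271.4), whose ranges overlapped, and HIS1-3, an H1 gene, was last with 3.07 CPM per kb, in a range that overlapped that of HTA12.

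The summed levels of all 39 genes were close between ages, at 2285 ± 35.8 CPM in 14-day and 2377 ± 73.6 CPM in 8-day RNase I libraries (SD, n = 3 each), but their make-up was not. Summed over the 25 replicative genes, 14-day libraries held 808.9 ± 39.8 CPM and 8-day libraries 1301 ± 42.5 CPM, whereas the 11 variant genes summed to 1050 ± 17.4 CPM at 14 days and 722.9 ± 22.5 CPM at 8 days. The steepest difference was in H3, with H3.1 at 77.5 to 101.1 CPM in 14-day libraries and 246.9 to 264.0 CPM in 8-day libraries, and H3.3 at 724.1 to 730.1 CPM in 14-day libraries and 380.9 to 399.7 CPM in 8-day libraries. None of these ranges overlapped between the ages, and they are given without a test because they are sums over the chosen genes.

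**Figure D1:**
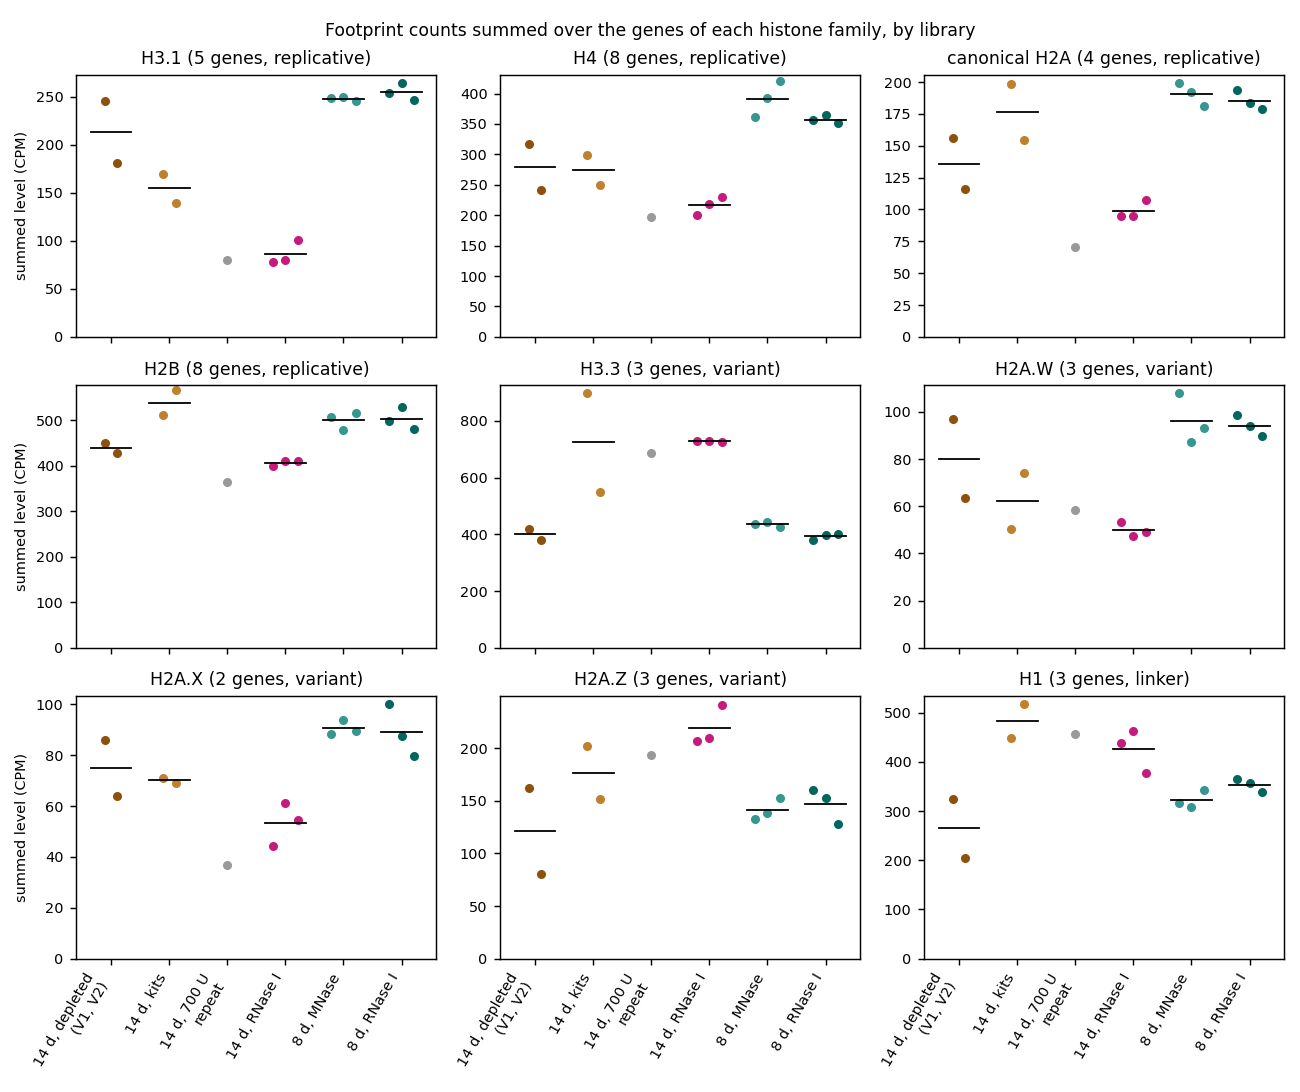
Summed level (CPM, linear axis from 0) of each histone family in every library, with 1 point per library and a bar at the group mean, for 14-day depleted, kit, 700 U repeat and RNase I libraries and 8-day MNase and RNase I libraries from left to right. H3.1 lay at 77.5 to 101.1 CPM in the 14-day RNase I libraries and at 180.8 to 264.0 CPM in the depleted and 8-day libraries, while H3.3 lay at 724.1 to 730.1 CPM and at 380.7 to 444.8 CPM in the same libraries.

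Shares of H3, H2A and H1 counts, here and below, are over the histone genes followed here only. As a share of the summed H3.1 and H3.3 counts, H3.1 took 9.59% (95% Wilson interval 8.39% to 11%), 9.90% (8.63% to 11.3%) and 12.3% (11.1% to 13.5%) in the 14-day libraries at 400, 550 and 700 U, against 40.1% (38.3% to 41.9%), 40.0% (38.2% to 41.7%) and 38.2% (36.8% to 39.6%) in the 8-day libraries at 62.5, 125 and 250 U. Such intervals cover counting error only. Within H2A, H2A.Z took 52.0% ± 1.3 of the counts at 14 days and 28.5% ± 1.42 at 8 days, canonical H2A 23.5% ± 0.478 and 36.0% ± 1.37, H2A.W 11.9% ± 1.35 and 18.3% ± 0.506, and H2A.X 12.6% ± 1.92 and 17.2% ± 0.73, each at 14 and at 8 days (SD, n = 3). So the share of H2A.Z was higher at 14 days, and the shares of the other 3 kinds of H2A were lower, with no overlap between libraries of the ages. In the 700 U repeat, however, H2A.W took 16.3%, against 10.8% in the first 700 U library and 17.9% to 18.8% at 8 days. The other shares in the repeat were 53.8% for H2A.Z, 19.7% for canonical H2A and 10.2% for H2A.X. Within H2A.Z, HTA9 made up 89.0% ± 0.601 of H2A.Z counts at 14 days and 63.2% ± 2.58 at 8 days.

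**Figure D2:**
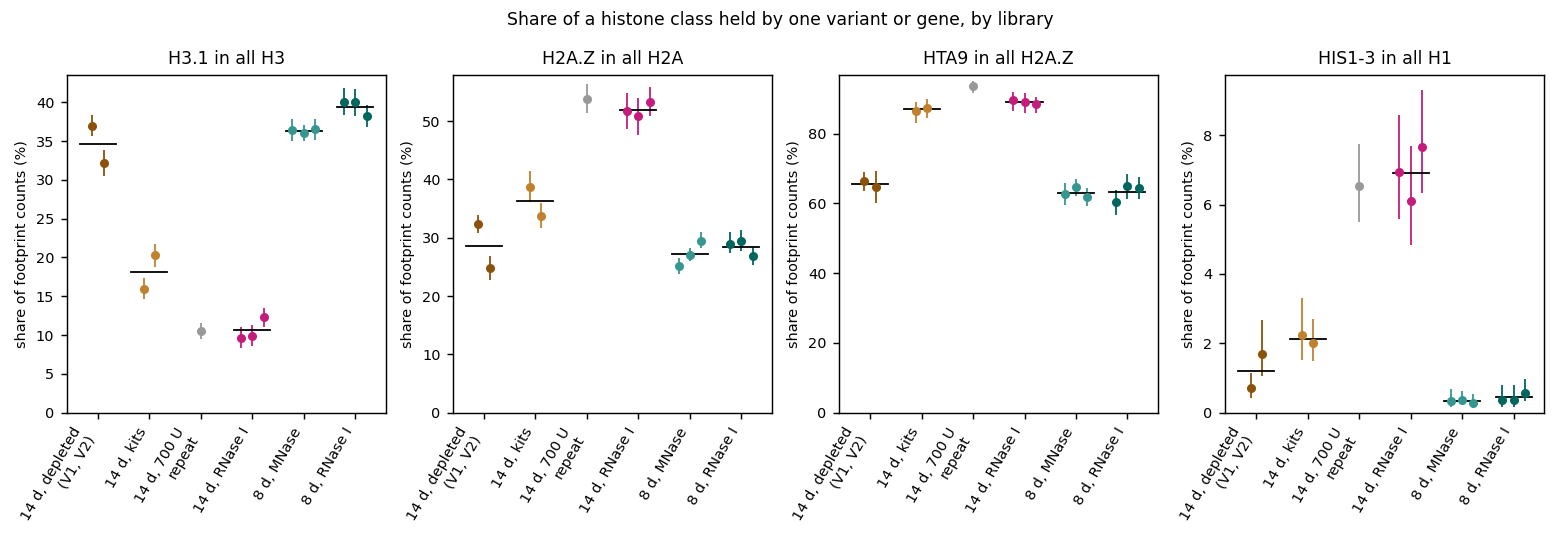
Share (%) of H3, H2A, H2A.Z and H1 counts, summed over the genes followed here, taken by H3.1, H2A.Z, HTA9 and HIS1-3 in every library, with 95% Wilson intervals as vertical lines and group means as bars, in the same left-to-right order of groups. H3.1 took 9.59% to 12.3% of H3 counts in 14-day RNase I libraries and 32.2% to 40.1% in the depleted and 8-day libraries, with the kit libraries at 15.9% and 20.3%.

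The comparison of 14-day with 8-day RNase I libraries asks how the histone genes differ between the seedlings of the series' experiments. Of the 39 histone genes, 24 fell and 7 rose at 14 days (adjusted p under 0.05, edgeR's quasi-likelihood test with Benjamini-Hochberg adjustment over 15460 genes), where 25.2% of all genes tested were called lower and 25.3% higher, 50.5% in all. Among the 25 replicative genes 19 fell and 1 rose, with a median log2 fold change of -0.86, against 0.01 over all genes tested. Of the 11 variant genes 5 fell and 4 rose (median -0.21), and of the 3 linker genes 2 rose.

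The 5 H3.1 genes all fell, by 1.07 to 1.80 on the log2 scale. AT5G65360 had 21.2, 23.5 and 23.2 CPM in 14-day libraries (400, 550 and 700 U), against 81.9, 80.9 and 70.0 CPM in 8-day libraries (62.5, 125 and 250 U), a log2 fold change of -1.80 (SE 0.13, edgeR adjusted p = 5.07e-22). AT1G09200, the H3.1 gene with the most counts, had 20.4, 24.4 and 30.2 CPM at 14 days, against 83.0, 89.1 and 80.0 CPM at 8 days (log2 fold change -1.75). Every 14-day library lay below every 8-day library for each of the 5 genes. The share of all genes separated in this way, here and below, was not counted, while 50.5% of all genes tested were called. The other 3 genes, AT5G10400 (-1.59), AT5G10390 (-1.09) and AT3G27360 (-1.07), differed less and were also less abundant at 8 days.

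H4, the partner of H3 in the nucleosome core, summed to 216.3 ± 15.2 CPM at 14 days and 357.2 ± 6.54 CPM at 8 days, and 6 of its 8 genes fell. AT3G53730, which shares few windows with other genes and had the highest mean count of the family, had 52.3, 52.6 and 48.9 CPM at 14 days, against 76.3, 73.6 and 75.4 CPM at 8 days (log2 fold change -0.59, SE 0.11). HIS4, likewise little shared, had 21.2, 22.7 and 16.8 CPM at 14 days and 45.8, 46.0 and 44.7 CPM at 8 days, the largest change of the family (-1.22). Both genes were separated by age in every library. AT1G07660 (-0.35, adjusted p = 0.145) and AT1G07820 (-0.09, adjusted p = 0.69) missed the threshold, and these are the genes that share 65.2% of their windows with each other.

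Canonical H2A and H2B form the dimers that flank the H3-H4 core. In H2A, the change lay in HTA10, which had 36.7, 40.6 and 40.6 CPM at 14 days, against 118.7, 103.3 and 100.4 CPM at 8 days (log2 fold change -1.47, SE 0.11, edgeR adjusted p = 1.05e-21), and in HTA13 (-0.86). HTA2 (-0.28, adjusted p = 0.145) and RAT5, known from its mutant's resistance to root transformation by Agrobacterium (0.04, adjusted p = 0.894), had overlapping libraries, although HTA2 was called lower (-0.44) without the 700 U library (adjusted p = 0.0484) and with the repeat added (adjusted p = 0.0154). HTA10 thereby made up 39.8% ± 2.69 of canonical H2A counts at 14 days and 57.8% ± 2.99 at 8 days. The H2B genes were mixed, as 6 of 8 fell and 1 rose. AT3G53650 had the largest change of them at low counts, with 5.99, 2.57 and 1.83 CPM at 14 days and 11.3, 7.74 and 12.3 CPM at 8 days (-1.68, SE 0.34), while HTB4, the most abundant, had 103.8, 109.0 and 111.2 CPM at 14 days and 127.5, 151.7 and 138.1 CPM at 8 days (-0.39, SE 0.08). HTB9 stood at 105.6 to 108.5 CPM at 14 days and 94.2 to 109.0 CPM at 8 days (0.05, adjusted p = 0.662). AT2G28720, the H2B gene with the low GC content at that position, was the replicative gene that rose, with 9.59, 12.0 and 7.94 CPM at 14 days, against 4.29, 6.19 and 4.90 CPM at 8 days (0.89, SE 0.30, edgeR adjusted p = 0.00987), and its call was lost without the 550 U library (adjusted p = 0.0776), with the 700 U repeat added (0.0764) and in 1 fit over all groups (0.105). The 700 U repeat held AT2G28720 at 3.15 CPM (13 counts), below every 8-day RNase I library. AT2G37470 (-0.51) lost its call without the 400 U library (adjusted p = 0.0619), with the repeat added (0.12) and in the fit over all groups (0.0593). In that fit HTB11 (-0.29) lost its call too (0.0611).

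The variant genes moved in both directions. All 3 H3.3 genes rose, AT4G40040 with 366.3, 359.2 and 339.1 CPM at 14 days, against 171.0, 176.0 and 182.8 CPM at 8 days (log2 fold change 0.97, SE 0.07, edgeR adjusted p = 4.56e-23). AT4G40030 had 230.9, 248.0 and 219.7 CPM at 14 days, against 112.1, 110.6 and 118.1 CPM at 8 days (1.00), and AT5G10980 rose by less (0.43). These 3 genes were higher in each 14-day library than in any 8-day library, a separation likewise not counted over all genes. The H2A.Z genes split, since HTA9 rose with 184.9, 186.8 and 213.2 CPM at 14 days, against 96.8, 99.3 and 82.5 CPM at 8 days (1.05, SE 0.08), while HTA11 (-1.13) and HTA8 (-1.34) fell. HTA8 was sparse, at 3.06 to 3.59 CPM at 14 days and 6.53 to 9.73 CPM at 8 days. Of the H2A.W genes, HTA6 had 25.6, 22.2 and 23.5 CPM at 14 days, against 72.7, 64.3 and 61.6 CPM at 8 days (-1.50, SE 0.13, edgeR adjusted p = 2.20e-17), HTA7 was not called (-0.21, adjusted p = 0.296), and HTA12 reached at most 3.59 CPM at 14 days and 2.87 CPM at 8 days (0.54, adjusted p = 0.348). Both H2A.X genes fell, H2AXA with 30.8, 45.7 and 37.6 CPM at 14 days, against 63.0, 63.2 and 49.9 CPM at 8 days (-0.65), and GAMMA-H2AX by more (-1.01). HTA6, HTA8, HTA11 and the H2A.X genes thus had the sign of most replicative genes, and the H3.3 genes and HTA9 the opposite one.

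HIS1-3, the short, drought-inducible form of the linker histone, had the largest change of all 39 genes. It had 30.4, 28.2 and 29.0 CPM in 14-day libraries, against 1.35, 1.33 and 1.93 CPM in 8-day libraries, from 66 to 95 counts at 14 days and 6 to 13 counts at 8 days, a 17.7-fold difference (log2 fold change 4.14, SE 0.28, edgeR adjusted p = 1.09e-23). As a share of H1 counts it was 6.90% ± 0.79 at 14 days and 0.438% ± 0.115 at 8 days. The main H1 genes changed little in comparison. AT2G30620 had 222.1, 251.0 and 181.5 CPM at 14 days, against 171.5, 168.3 and 154.2 CPM at 8 days (0.37, SE 0.08), and AT1G06760 had 185.7, 183.9 and 167.7 CPM at 14 days, against 191.6, 187.9 and 182.3 CPM at 8 days (-0.10, adjusted p = 0.243).

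**Figure D3:**
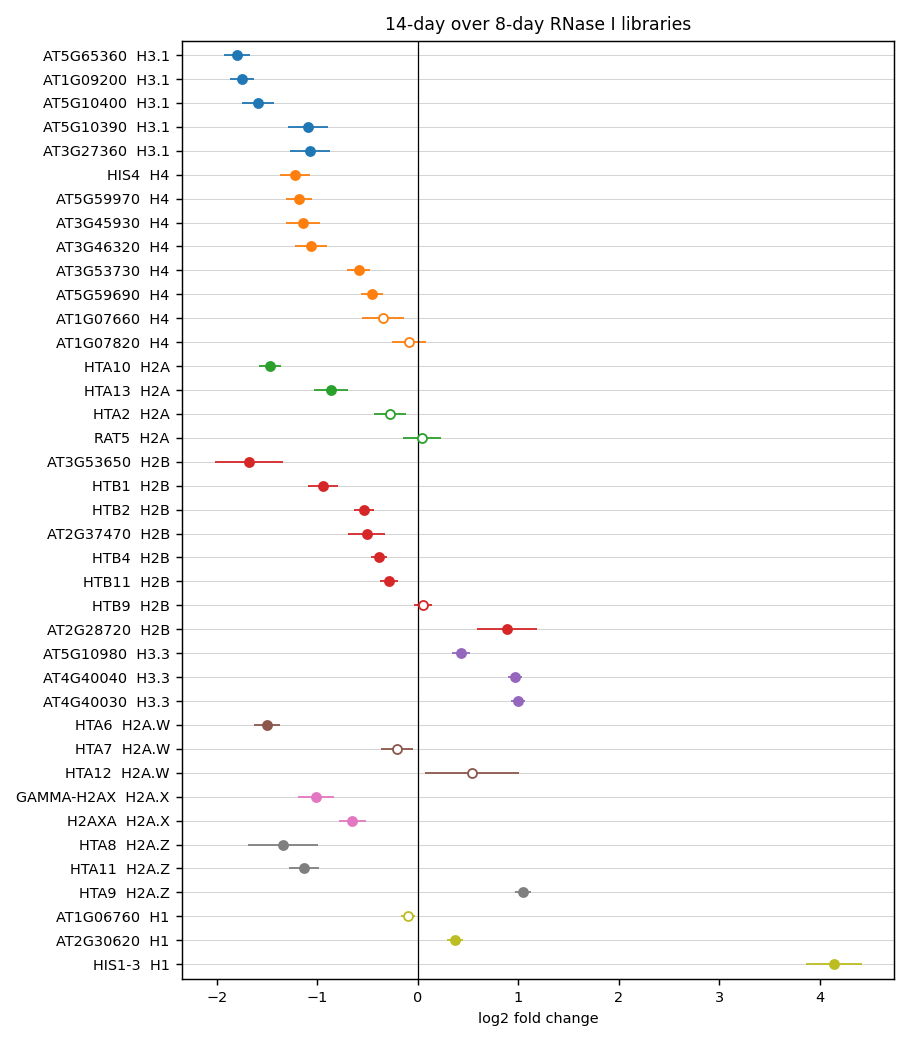
Log2 fold change of the 39 histone genes, 14-day over 8-day RNase I libraries (n = 3 each), with bars of 1 SE, grouped and coloured by family. Filled points passed the threshold in edgeR's test (adjusted p under 0.05) and open points did not; the H3.1 genes lie between -1.80 and -1.07, the H3.3 genes between 0.43 and 1.00, and HIS1-3 at 4.14.

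Of the 10 genes with the octamer in their promoter, 7 fell at 14 days, 1 rose and 2 were not called (median log2 fold change -1.17), and of the 29 other histone genes 17 fell, 6 rose and 6 were not called (median -0.51). Of all genes tested, 25.2% were called lower and 25.3% higher. The gene with the octamer that rose was the H3.3 gene AT4G40040. The groups also differ in family, as the octamer was held by 3 of 5 H3.1 genes (family median -1.59) and 0 of 8 H2B genes (-0.45). Whether the groups differ in fold change, with or without regard to family, was not tested.

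Other genes of S phase and the cell cycle were mostly lower at 14 days, and the histone chaperones were mixed. Of 11 DNA replication genes 10 fell (median -1.32), led by PCNA1, the sliding clamp (-1.84), TSO2, a small subunit of ribonucleotide reductase (-1.76), and the helicase subunits MCM3 (-1.67) and MCM2 (-1.44). Of 15 cell cycle regulators 11 fell, with the mitotic kinase CDKB1;2 at -2.92, and 1 rose, CDC2, the kinase CDKA;1 (0.76). Among 12 histone chaperones 4 fell, including FAS2, a CAF-1 subunit (-1.42), TSK (-0.96) and NRP2 (-0.52), 2 rose, NAP1;2 (0.69) and the ASF1 gene SGA2 (0.63), and 6 were not called. The 12 summed to 613.5 to 620.4 CPM at 14 days and 501.6 to 520.5 CPM at 8 days.

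Markers of other cell types differed between the ages too. Of 6 markers of green leaf cells 5 rose (0.20 to 0.61), with a summed level of 49245 to 53619 CPM at 14 days and 39361 to 41983 CPM at 8 days. All 5 root cell markers that could be tested, of 8, fell, most the peroxidase gene AT5G17820 (-3.11), and the 8 summed to 861.9 to 972.3 CPM at 14 days and 1901 to 1960 CPM at 8 days. The untested markers were sparse at both ages, with the root tip genes WOX5 and PLT1 and the root hair gene EXPA7 at 0 in the 700 U library, PLT1 also at 0 in the 550, 62.5 and 250 U libraries, and a mean of 0.542 CPM at 14 days and 0.470 CPM at 8 days for WOX5. Of 7 markers of meristem and dividing leaf cells, 6 were tested, of which STM rose (2.25) and SCR fell (-0.42), and the 7 together summed to 62.9 to 78.8 CPM at 14 days and 77.2 to 80.5 CPM at 8 days. The part of these cell types in the histone differences was not tested.

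The nuclease comparison asks whether MNase and RNase I give the same picture of the same 8-day seedlings. Of the 38 histone genes tested 1 rose in MNase libraries, where 2.11% of all 16738 genes were called, 1.43% higher and 0.681% lower. It was the H3.3 gene AT4G40030, with 141.2, 161.9 and 159.1 CPM at 75, 150 and 300 U of MNase, against 112.1, 110.6 and 118.1 CPM at 62.5, 125 and 250 U of RNase I (log2 fold change 0.46, SE 0.08, edgeR adjusted p = 7.36e-05). All its MNase libraries lay above the RNase I libraries, but edgeR called 0 of the 16738 genes when all Arabidopsis groups entered 1 fit (adjusted p = 0.59 for AT4G40030), where 1163 genes had an unadjusted p under 0.05, and DESeq2 on the 2 groups called 438. Of the 25 replicative genes 0 were called by edgeR, 3 had an unadjusted p under 0.05, and DESeq2 called 1. The H3.1 genes lay between -0.25 and 0.32, and H3.1 took 36.0% to 36.5% of H3 counts in MNase libraries and 38.2% to 40.1% in RNase I libraries. HIS1-3, at 0.957 to 1.12 CPM in MNase libraries and 1.33 to 1.93 CPM in RNase I libraries, was too sparse to be tested.

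The depletion comparison asks how libraries made after rRNA depletion differ from those made without it, at the same age. Of the 39 histone genes 18 were higher in V1 and V2 and 4 were lower, where 10.9% of all 15532 genes were called higher and 11.7% lower (22.7% in all). Among the replicative genes 14 of 25 rose, with a median log2 fold change of 0.77, against 0.03 over all genes tested. The undepleted libraries are also the 14-day libraries of the age comparison, so both comparisons share these 3 libraries.

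All 5 H3.1 genes rose, by up to 1.62 on the log2 scale, though AT3G27360 and AT5G10390 lost their calls without the 400 U or the 550 U library. AT5G65360 had 70.7 CPM in V1 and 53.4 CPM in V2, against 21.2, 23.5 and 23.2 CPM in undepleted libraries (log2 fold change 1.62, SE 0.18, edgeR adjusted p = 0.000429). AT3G53650 for H2B had 11.2 CPM in V1 and 9.44 CPM in V2, against 5.99, 2.57 and 1.83 CPM in undepleted libraries, the largest rise of the replicative genes (1.78, SE 0.42, edgeR adjusted p = 0.0156), with a call that was lost without the 550 U or the 700 U library. In both genes the depleted libraries lay above all undepleted ones. HTA10 had 82.3 CPM in V1 and 64.6 CPM in V2, against 36.7, 40.6 and 40.6 CPM in undepleted libraries (1.07), while HTB4 had 113.2 and 104.3 CPM, against 103.8, 109.0 and 111.2 CPM (0.19, adjusted p = 0.379). Of the H4 genes 4 rose, of H2A 2 and of H2B 3. Of these, HIS4, AT3G45930, AT5G59970, HTA13, HTB1 and HTB2 also lost their calls when 1 of the undepleted libraries was left out, and AT5G59970, HTA13 and HTB2 in DESeq2. DESeq2 called 17 histone genes in all, against 22 by edgeR.

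Among the variants 4 rose and 3 fell. HTA6 had 66.9 CPM in V1 and 37.0 CPM in V2, against 25.6, 22.2 and 23.5 CPM in undepleted libraries (1.28, SE 0.21, edgeR adjusted p = 0.00318). HTA8 (1.28), GAMMA-H2AX (1.12) and HTA11 (0.85) were higher too, although the groups overlapped for HTA11. HTA8 and HTA11 lost their calls in DESeq2 (adjusted p = 0.0862 and 0.0698), without any 1 of the undepleted libraries, and without V1, where HTA11 stood at 0.42. HTA9 had 107.7 CPM in V1 and 52.0 CPM in V2, against 184.9, 186.8 and 213.2 CPM in undepleted libraries (-1.15, SE 0.22, edgeR adjusted p = 0.00722). The H3.3 genes AT4G40040, with 175.7 and 165.0 CPM in V1 and V2, against 366.3, 359.2 and 339.1 CPM in undepleted libraries (-0.87), and AT4G40030 (-0.73) fell as well, and AT5G10980 was not called (-0.22, adjusted p = 0.427). HIS1-3 had 2.27 CPM in V1 and 3.47 CPM in V2, from 16 and 18 counts, against 30.4, 28.2 and 29.0 CPM in undepleted libraries, 9.07-fold lower (-3.18, SE 0.30, edgeR adjusted p = 0.00021). AT2G30620 (-0.46, adjusted p = 0.0836) and AT1G06760 (-0.42, adjusted p = 0.118) missed the threshold. AT2G30620 was called lower without V1 (-0.60, adjusted p = 0.000195), without V2 (-0.30, adjusted p = 0.0383), with the 700 U repeat added and in 1 fit over all groups. AT1G06760 was called lower without V1 (-0.72, adjusted p = 3.69e-06) and in that fit.

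All 11 DNA replication genes rose in the depleted libraries (1.06 to 2.12), with sums of 452.1 CPM in V1 and 505.8 CPM in V2, against 159.8 to 170.2 CPM in undepleted libraries. The root markers summed to 2050 CPM in V1 and 1228 CPM in V2, against 861.9 to 972.3 CPM, and 1 of the 5 tested, PYK10, rose (0.95). The green leaf markers summed to 37274 and 48838 CPM in V1 and V2, against 49245 to 53619 CPM, with log2 fold changes of -0.32 to 0.45. The meristem and dividing leaf cell markers summed to 76.4 and 56.9 CPM in V1 and V2, against 62.9 to 78.8 CPM, and STM fell (-1.96). Depletion, size selection and RNase I dose changed together here and cannot be told apart. Plant material may have differed too, since the paper describes its data as coming from varied material and experiments and names no shared harvest. The part of these markers was not tested. The number of histone genes called was 11, 11 and 12 without the 400, 550 or 700 U library, among others without AT4G40030 in each case and without HTA9 in the last (adjusted p = 0.0605). Scaling to library totals in place of TMM lowered the log2 ratio of all genes by 0.18 in the median.

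The kit libraries, depleted as well and made from 14-day seedlings, were set against the same 3 undepleted libraries. Of the 39 histone genes 13 were higher and 1 was lower, where 13.3% of all 14823 genes were called higher and 14.5% lower (27.9% in all). Of these 13, 10 were replicative, with 4 of the 5 H3.1 genes (0.62 to 1.06). Of these 4, AT1G09200 and AT5G10390 lost their calls without the 400 U or the 550 U library. Both also lost them in DESeq2 (adjusted p = 0.0824 and 0.0918), and AT1G09200 stood at 0.42 without the ligation-based library. HTA10 had 124.2 CPM in the ligation-based and 97.9 CPM in the ligation-free library, against 36.7, 40.6 and 40.6 CPM in undepleted libraries, the largest rise of the 39 genes (log2 fold change 1.50, SE 0.15, edgeR adjusted p = 8.74e-09). HTB4, with 166.7 and 170.7 CPM, against 103.8, 109.0 and 111.2 CPM, rose by 0.66. In both genes each kit library was above each undepleted library. AT2G28720 had 15.8 CPM in the ligation-based and 23.5 CPM in the ligation-free library, against 9.59, 12.0 and 7.94 CPM in undepleted libraries (1.06), and lost its call without the ligation-free library (adjusted p = 0.094).

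Among the variants GAMMA-H2AX had 34.0 CPM in the ligation-based and 30.8 CPM in the ligation-free library, against 13.6, 15.4 and 16.8 CPM in undepleted libraries (1.08, SE 0.20, edgeR adjusted p = 0.000193). HTA6 rose as well (0.60), with a call that was lost without the ligation-free library (adjusted p = 0.148). HTA9 had 174.3 and 132.6 CPM in the ligation-based and the ligation-free library, against 184.9 to 213.2 CPM in undepleted libraries (-0.34, adjusted p = 0.059). It was called lower without the ligation-based library (-0.57, adjusted p = 0.000177) and under both other filters on low counts (adjusted p = 0.0258 and 0.0407). AT4G40030 had 393.6 CPM in the ligation-based and 224.0 CPM in the ligation-free library, against 219.7 to 248.0 CPM in undepleted libraries (0.43, adjusted p = 0.247), and AT4G40040 had 373.8 and 231.0 CPM, against 339.1 to 366.3 CPM (-0.21, adjusted p = 0.389). The kits disagreed on these H3.3 genes, since the sign of each fold change turned when 1 kit library was left out, to -0.07 for AT4G40030 without the ligation-based and 0.14 for AT4G40040 without the ligation-free library. HIS1-3 had 10.1 and 10.4 CPM in the kit libraries, from 25 and 43 counts, against 30.4, 28.2 and 29.0 CPM in undepleted libraries (-1.49, SE 0.22, edgeR adjusted p = 8.18e-06), and AT1G06760 rose slightly (0.35), with a call that was lost without any 1 of the undepleted libraries. Of the DNA replication genes 7 of 11 rose, and the root markers summed to 1120 CPM in the ligation-based and 1119 CPM in the ligation-free library, against 861.9 to 972.3 CPM in undepleted libraries, where 1 of 5 rose. The green leaf markers summed to 43713 and 37450 CPM, against 49245 to 53619 CPM, and 2 of 6 fell. The 7 markers of meristem and dividing leaf cells summed to 87.0 CPM in the ligation-based and 106.9 CPM in the ligation-free library, against 62.9 to 78.8 CPM in undepleted libraries, and 1 of 6 tested, SCR, rose (0.82). The part of these markers was not tested. Kit, depletion, size selection and dose cannot be told apart in this comparison, nor from plant material, which may have differed here too.

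**Figure D4:**
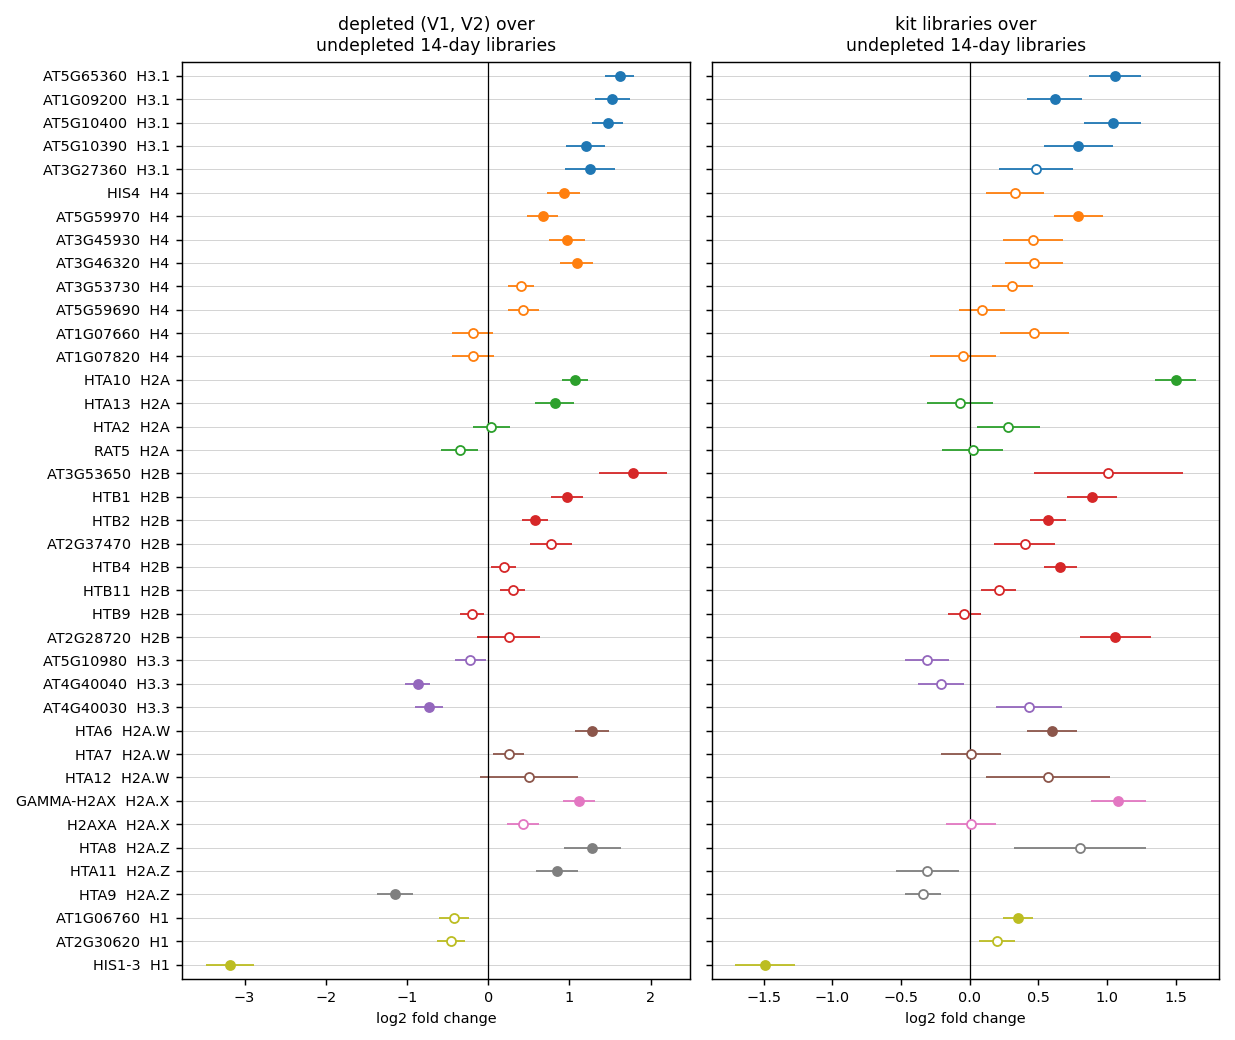
Log2 fold change of the 39 histone genes in the depleted (V1 and V2, n = 2, left) and the kit libraries (n = 2, right) over the same 3 undepleted 14-day libraries, with bars of 1 SE and filled points for adjusted p under 0.05 in edgeR's test. The H3.1 genes reach 1.62 on the left and 1.06 on the right, and HIS1-3 at -3.18 and -1.49; the horizontal scales differ.

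Set side by side over the 14 libraries, the ratio of summed H3.1 to summed H3.3 counts was 0.588 in V1 and 0.475 in V2, 0.189 in the ligation-based and 0.254 in the ligation-free library, 0.117 in the 700 U repeat, 0.106 to 0.140 with RNase I at 14 days, 0.563 to 0.574 with MNase and 0.618 to 0.668 with RNase I at 8 days. Canonical H2A over H2A.Z followed with 0.961 and 1.45 in V1 and V2, 0.982 and 1.02 in the kit libraries, 0.365 in the 700 U repeat, 0.447 to 0.458 with RNase I at 14 days, 1.19 to 1.50 with MNase and up to 1.40 with RNase I at 8 days. In V1 and V2, both ratios were nearer to those of the 8-day than of the undepleted 14-day libraries, as was the H2A ratio, but not the H3 ratio, in the kit libraries. For HTA9 in H2A.Z, by contrast, the kit libraries (86.4% and 87.4%) lay next to the 14-day libraries (88.4% to 89.6%), and V1 and V2 (66.4% and 64.7%) next to the 8-day RNase I libraries (60.3% to 65.0%).

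Pairs of single libraries have no repeats and are given as ratios only. Between the oligo cocktails, the median log2 ratio of V1 over V2 was 0.40 over the 39 histone genes and 0.28 over all genes with at least 10 counts in both. H2A.Z differed most of the families, with 162.2 CPM in V1 and 80.4 CPM in V2 (1.01), and H2B least, with 450.1 and 428.7 CPM (0.07). Between the kits, the median log2 ratio of ligation-free over ligation-based was -0.11 over the 37 histone genes with enough counts and 0.06 over all genes. The paper used more PCR cycles for the ligation-based than for the ligation-free library. H3.3 was lower in the ligation-free library, at 548.6 CPM, against 898.8 CPM in the ligation-based library (-0.71), and H2A.W was higher, at 73.9 CPM against 50.2 CPM (0.56). The 700 U repeat was a technical repeat from the same RPFs. The paper amplified it with more PCR cycles than the first 700 U library and used the pair to assess PCR bias. Its median log2 ratio over the first 700 U library was -0.28 for the histone genes and 0.03 for all genes, with 70.7 and 107.8 CPM for canonical H2A (-0.61), 80.6 and 101.1 CPM for H3.1 (-0.33) and 687.9 and 724.1 CPM for H3.3 (-0.07). The log2 ratios of the summed means at 14 over 8 days were -1.57 for H3.1, 0.89 for H3.3, -0.90 for canonical H2A and 0.27 for H1. The technical difference was smaller than that between the ages for the first 3 families but as large for H1, whose repeat differed by 0.27. For H4 it was -0.22 (age -0.72), for H2B -0.17 (age -0.30) and for H2A.W 0.26 (age -0.92). For H2A.X it was -0.56 (age -0.74) and for H2A.Z -0.32 (age 0.58). AT2G30620, called higher at 14 days by 0.37, differed by 0.38 between the repeat and the first 700 U library. Some called genes of other families also differed at least as much as between the ages. These included HTA11 (-1.27, age -1.13), AT5G10390 (-1.10, age -1.09), HTA13 (-0.98, age -0.86) and H2AXA (-0.65, age -0.65). Also among them were the H3.3 gene AT5G10980 (-0.48, age 0.43) and the H2B genes AT2G28720 (-1.34, age 0.89), AT2G37470 (0.65, age -0.51) and HTB11 (-0.29, age -0.29). In the repeat AT5G10980 stood at 118.2 CPM, against 97.7 to 110.1 CPM in 8-day RNase I libraries. AT2G37470 stood at 24.9 CPM, against 21.7 to 23.4 CPM. HTA10 (-0.38, age -1.47), AT4G40040 (0.00, age 0.97) and HIS1-3 (0.04, age 4.14) differed less.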

How the data were processed

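Counts of RPF reads over the CDS of each gene, as deposited by the authors, were used for 14 of the 16 libraries of the series. The tobacco libraries were not used here. The authors trimmed adapters with cutadapt, removed rRNA, tRNA and snoRNA reads, aligned the rest to TAIR10 (Ensembl Plants annotation 45) with STAR, keeping 1 alignment per read, and counted sense reads over CDS with featureCounts. The versions were not given in the sources used here. These deposited counts are whole numbers and were not normalized. Kit libraries stand in a second table, joined by gene identifier.

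Genes with at least 10 counts in as many libraries as the smaller group holds were tested by the quasi-likelihood test of edgeR 4.0.16, run in R 4.3.3 with limma 3.58.1, on TMM-normalized counts, 2-sided, with Benjamini-Hochberg adjustment over all genes tested and a threshold of 0.05. DESeq2 1.42.0, other filters and scalings, 1 fit over all groups, counts summed by family, the 700 U repeat added to its library and each library left out were tried as alternatives. On simulated data edgeR recovered 77.6% of 2-fold and 98.0% of 4-fold changes for age, 63.9% and 92.6% for nuclease, 39.1% and 89.6% for depletion, and 70.5% and 95.0% for kits. Shares have 95% Wilson intervals. No 2 libraries of a group agreed within sampling noise (chi-square per degree of freedom 1.15 for 400 against 550 U and 2.19 to 30.38 for the other pairs).

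Sequences come from the RefSeq copy of TAIR10.1, in which 27367 of 27419 nuclear genes (99.8%) and all 39 histone genes have the CDS segments of the files. Python 3.11.15 was used with pandas 2.3.3, numpy 2.4.6 and matplotlib 3.10.9. The histone genes, the 3 other gene lists and the 3 marker lists were chosen with earlier results of these data known. Values by library are given for the most abundant gene of each family, the gene with the largest called change of each class in each comparison, the H1 genes, and other members chosen after their values were seen.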

Additional observations from a re-analysis of the deposited data

How the results depend on the processing

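Library sizes limit the sparse members most, since HTA12, HTA8 and AT3G53650 rest on few counts, and H4 genes share reads. No paired analysis was possible because the labels give no replicate numbers that pair libraries across groups. Leaving out each library in turn, edgeR called 6633 to 7064 genes and 30 to 32 histone genes for age, 164 to 430 and 1 to 2 for nuclease, 1198 to 6102 and 11 to 28 for depletion, and 3024 to 4235 and 10 to 18 for kits. Where 1 depleted or kit library was left, it was assumed to vary like the undepleted ones. With counts summed by family, 9 of 9 families were called for age, 8 for depletion, 5 for kits and 0 for nuclease. In the nuclease comparison DESeq2 called 2 histone genes, and 1 fit over all groups called 0 genes, where 1163 of 16738 genes and 3 histone genes had an unadjusted p under 0.05. DESeq2 called 2546 genes for kits, against 4131 by edgeR. Signs that turned were those of genes not called. For age these were AT1G07820 (-0.29 to 0.08 over the left-out libraries, turned without the 400 U library), HTB9 (-0.04 to 0.07, turned without the 250 U library) and RAT5 (-0.01 with at least 10 counts in every library, -0.03 without the 62.5 U, -0.04 without the 250 U and -0.09 without the 400 U library, and -0.10 with the 700 U repeat added). For kits these were AT4G40030 (-0.07 without the ligation-based and 0.82 without the ligation-free library) and AT4G40040 (-0.63 and 0.14). The causes were not tested.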
